A study of Homo sapiens with 7 samples.

Results

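The prolactin receptor gene PRLR, the kinase genes JAK1 and JAK2, the transcription factor genes STAT3, STAT5A, STAT5B and STAT6, and the inhibitor genes CISH and SOCS2 were examined in T47D/A1-2 human breast cancer cells. These 9 genes were taken by name from the 26175 genes of the RNA-seq table, together with the transcription start site (TSS) calls inside each gene's locus widened by 1000 nts and the antisense calls that carry the same identifier. Loci widened in this way held 11 of all called gene TSSs, of which 8 belonged to the genes named above and 3 to neighbours.

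Prolactin is a pituitary hormone that drives growth of the mammary epithelium and milk production. Its receptor has no kinase of its own and relays the signal through JAK2, which phosphorylates STAT5A and STAT5B, and these bind DNA as dimers at sites with the core TTCNNNGAA. CISH and SOCS2 are SH2-domain proteins of the SOCS family, are typical targets of STAT5 and act back on the receptor to dampen it. JAK1 serves many cytokine receptors, STAT3 is best known downstream of the interleukin-6 family and STAT6 downstream of interleukin-4.

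All cells had the same growth condition. The sample labels name the line T-47D, a luminal breast cancer line, whereas the study's methods name its subline A1-2. In this subline extra glucocorticoid receptor, of rat origin, is expressed, and a luciferase reporter under the MMTV promoter sits in the genome. Cells were grown with 10% serum and moved to medium with 5% charcoal-stripped serum, which is depleted of steroid hormones, for at least 24 hours. RNA-seq was made from 3 replicates that the authors merged into 1 FPKM value per gene, fragments scaled to transcript length and to the number of mapped fragments, and TSS positions were called from replicate 1 of 2 in Start-seq, which maps the capped 5’ ends of short nascent RNA. No value below therefore has an error between replicates, and the depth behind it is unknown. Luminal markers were abundant, with all 9 between 44.1 FPKM for the estrogen receptor gene ESR1 and 1142 FPKM for the keratin gene KRT8. The basal keratin genes KRT5 and KRT14 were listed at 0, and of the 12 markers of basal, mesenchymal, leukocyte, endothelial and erythroid cells 3 reached an FPKM of 1, with COL1A1 highest at 8.82 FPKM.

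Sequence at 7 of the called gene TSSs is shown first, because the call is made at single nucleotide resolution and the base pair at the start can be read directly. Each run holds 30 nts of the GRCh37 sequence, 19 upstream and 10 downstream of the called base, read in the direction of the gene. Capitals mark the bases at -1 and +1, where the called position is +1.
PRLR: gagttgagcttcttctcaCAgagccaccgg
JAK1: cggagtatcctggagctgCAgacagtgcgg
JAK2: aggaaggagagaggaagaGGagcagaaggg
STAT3: tttccggagctgcggcggCGcagactggga
STAT5A: aaatcgctgctctccgctCCttcctgtagt
STAT5B: ctgagacgccctcccgggGGcaaacccagg
CISH: gccgtccagccgagtcccCActccggagtc
A pyrimidine followed by a purine stood at these positions in 5 of the 8 genes with a call, beside 66.1% of all gene TSSs. The dinucleotide CA was read at PRLR, JAK1 and CISH, which is 3 of 8 beside 30.3% of all gene TSSs. JAK2, STAT5A and STAT5B had GG, CC and GG in its place.

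Levels of the 9 genes ran from 262.73 FPKM for PRLR to 0.0527 FPKM for SOCS2, a ratio of 4984. An FPKM of at least 1 was found for 7 of the 9, beside 46.9% of all genes. The median of the 9 genes was 11.6 FPKM, while the median of all genes was 0.528 FPKM and the 75th percentile 12.6 FPKM. The median percentile of the 9 among all genes was 73.8.

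PRLR stood far above the kinase, STAT and inhibitor genes examined with it. At 262.73 FPKM it ranked 171 among the 26175 genes (percentile 99.3), and its level was 4.92 times that of STAT3, the next gene in order. The receptor for growth hormone, GHR, which is the closest relative of PRLR in the class of cytokine receptors that use JAK2, was measured at 45.3 FPKM, so that PRLR was 5.79 times higher. The ligand genes were near or at 0, with PRL at 0.0143 FPKM and the growth hormone gene GH1 and the placental lactogen gene CSH1 listed at 0.

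The kinase that prolactin signaling relies on was the lower of the pair. JAK1 was measured at 21.9 FPKM (percentile 82.2) and JAK2 at 1.45 FPKM (percentile 55.2), a ratio of 15.1. Set against its receptor, JAK2 mRNA was 181 times lower than PRLR mRNA per kilobase. The other members of the kinase family lay between these genes, with TYK2 at 10.7 FPKM and JAK3, known mainly from lymphocytes, at 2.55 FPKM.

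Among the 4 STAT genes, STAT3 and STAT6 had the higher levels and the STAT5 genes the lower ones. STAT3 was measured at 53.4 FPKM (percentile 92.3) and STAT6 at 49.8 FPKM (percentile 91.6). These neighbours in the order differ by a ratio of 1.07, and whether they differ beyond the spread between replicates cannot be told from merged values. STAT5B followed at 11.6 FPKM (percentile 73.8) and STAT5A at 0.847 FPKM (percentile 52.2). STAT5B was thus 13.7 times higher than STAT5A, and the STAT5 genes together made up 10.7% of the summed FPKM of the 4 STAT genes.

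STAT5A and STAT5B are close paralogs, and reads from their shared stretches can be placed on either gene. Of the windows as long as 1 RNA-seq read in the longest coding STAT5A transcript, 7.69% occurred unchanged in a STAT5B transcript, and in the other direction the share was 5.92%. With shorter windows of 50 nts these shares were 11.9% and 9.22%. The part of these stretches in the FPKM ratio was not tested. No 50-nt window was shared between JAK1 and JAK2 or between CISH and SOCS2.

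The SOCS-family inhibitors differed from each other by a ratio of 161. CISH was measured at 8.49 FPKM (percentile 70.0) and SOCS2 at 0.0527 FPKM (percentile 40.2). The other 6 SOCS genes lay between these values or close to that of CISH, from 0.432 FPKM for SOCS1 to 8.61 FPKM for SOCS7, and SOCS3, a typical target of STAT3, was measured at 1.70 FPKM.

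A gene TSS was assigned by the nearest annotated start to 8 of the 9 genes, beside 35.2% of all genes. The share was 70.6% of all genes with an FPKM of at least 1 and 4.01% of those below it. Any gene TSS in the locus widened by 1000 nts, also one of a neighbour, was found for 8 of the 9, beside 49.9% of all genes. That share was 81.8% at an FPKM of at least 1 and 21.7% below it. All 7 members with an FPKM of at least 1 had an assigned gene TSS, as did STAT5A, whereas SOCS2 did not. SOCS2 has 12 annotated start positions in the GENCODE annotation lifted to GRCh37. None of them had a gene TSS within 1000 nts on the same strand, and the nearest called gene TSS on either strand lay 100707 nts from its locus. The antisense gene that overlaps it, SOCS2-AS1, was listed at 0 FPKM. The authors searched for gene TSSs only in windows around RefSeq mRNA starts. A start listed only in GENCODE may therefore not have been searched.

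**Figure D1:**
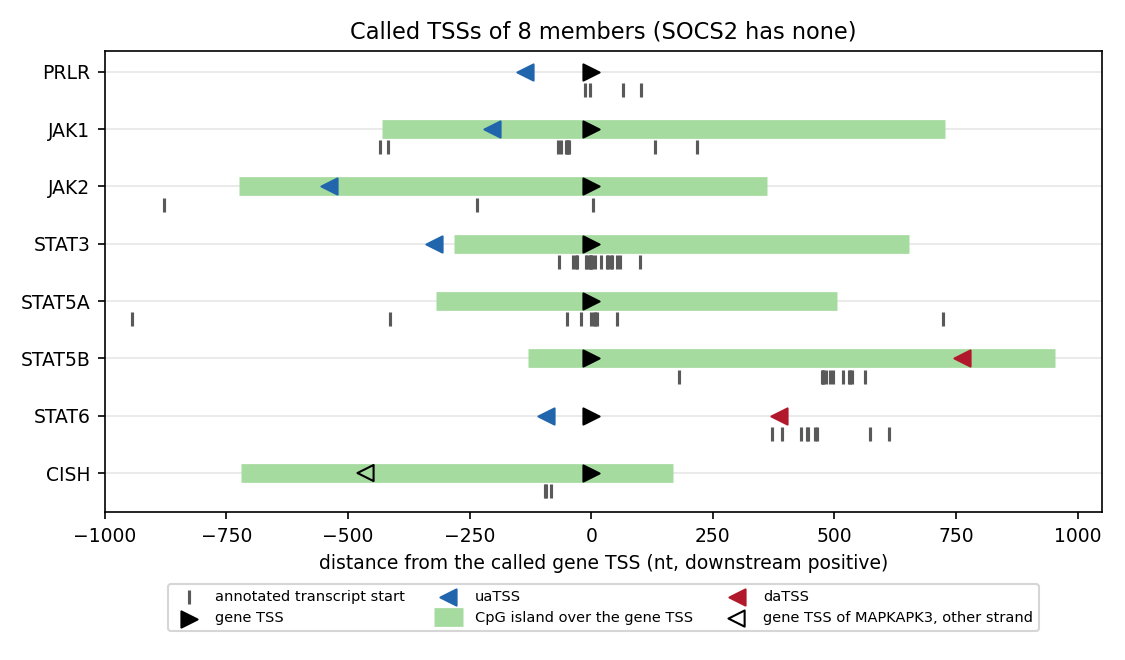
Position of the called TSSs relative to the gene TSS for the 8 genes with a call, in nts, with downstream positive. Black triangles are gene TSSs, blue and red triangles are upstream and downstream antisense TSSs, green bars are CpG-dense segments of over 200 bp at the gene TSS, the open triangle is the gene TSS of MAPKAPK3 and grey ticks are annotated transcript starts of the gene. Antisense calls stand at 6 of the 8 genes, and 2 have neither kind, beside 35.9% of all gene TSSs with neither. At STAT5B and STAT6 the nearest annotated start lies 181 and 372 nts downstream of the gene TSS.

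PRLR (ENSG00000113494) was called at position 35230577 on the minus strand of chromosome 5 in hg19, 2 nts downstream of the nearest annotated start and within exons of 2 PRLR transcripts. The annotation lists 11 start positions for PRLR, and 4 of them lay within 1000 nts of this call. No gene TSS was called within that distance of the remaining starts, and whether these lay inside the authors' RefSeq-guided search is not known.

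JAK1 (ENSG00000162434) was called at 65432184 on the minus strand of chromosome 1, 46 nts downstream of the nearest annotated start. JAK2 (ENSG00000096968) was called at 4985268 on the plus strand of chromosome 9, 4 nts upstream of the nearest annotated start and outside annotated JAK2 exons. Both kinase genes thus had a called start within 50 nts of an annotated one.

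The genes for STAT5B, STAT5A and STAT3 are neighbours on chromosome 17. STAT5B (ENSG00000173757), on the minus strand, was called at 40428906 and STAT5A (ENSG00000126561), on the plus strand, at 40440508, so that they diverge with 11602 nts between their starts. STAT3 (ENSG00000168610), on the minus strand, was called at 40540492, which is itself an annotated start, and the STAT5A and STAT3 loci end 1382 nts apart. The STAT5A call was 1 nt downstream of an annotated start but 943 nts downstream of the edge of the locus in the FPKM table, and the STAT5B call was 181 nts upstream of its nearest annotated start and 482 nts upstream of its locus. The annotation also lists 2 STAT5B transcripts that start within 1000 nts of the STAT5A gene TSS, and no antisense TSS was called within 2000 nts of that site.

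STAT6 (ENSG00000166888) was called at 57505588 on the minus strand of chromosome 12, 372 nts upstream of the nearest annotated start. Across all gene TSSs with an annotated start within 1000 nts, 9.05% were more than 300 nts from it, and the median distance was 10 nts. CISH (ENSG00000114737) was called at 50649109 on the minus strand of chromosome 3, 83 nts downstream of its nearest annotated start and within exons of all 3 annotated CISH transcripts.

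Upstream antisense TSSs (uaTSSs), which mark transcription leaving the promoter in the other direction, were called at PRLR, JAK1, JAK2, STAT3 and STAT6. That is 5 of 8, beside 53.1% of all gene TSSs. Their distances from the gene TSS were 93 nts at STAT6, 136 nts at PRLR, 203 nts at JAK1, 324 nts at STAT3 and 539 nts at JAK2. Over all 5519 uaTSSs the median distance was 200 nts with quartiles of 127 and 329.5 nts, so that the STAT6 call was closer than the lower quartile and the JAK2 call lay beyond the upper one, at percentile 91.1. The JAK2 uaTSS, at 4984729 on the minus strand, lay within an exon of 1 annotated JAK2 transcript, and the other uaTSSs lay outside exons of their gene.

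Downstream antisense TSSs (daTSSs), which face the gene TSS from downstream of it, were called at STAT5B and STAT6. That is 2 of 8, beside 28.4% of all gene TSSs. The STAT5B daTSS lay 762 nts downstream at 40428144 in introns of 21 STAT5B transcripts (percentile 72.3 of daTSS distances), and 12 annotated STAT5B starts lay between it and the gene TSS. The STAT6 daTSS lay 385 nts downstream at 57505203 (percentile 33.7), 7 nts upstream of an annotated STAT6 start. That start is also the edge of the STAT6 locus in the FPKM table, so this daTSS lay outside the locus. It was covered by 3 STAT6 transcripts and lay in an exon of 1 of them. Over all 2956 daTSSs the median distance was 507 nts.

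Sequence at the antisense TSSs is shown in the same way, in the direction of antisense transcription, because it allows the start to be compared with that of the gene.
PRLR uaTSS: aaaacgtccagagcctgcCAgttttagaag
JAK1 uaTSS: cctccggcctacccgcccCGcccccatccg
JAK2 uaTSS: cgcgcagcctgcactggaGGaggccgggct
STAT3 uaTSS: ggggggagggagggaagaTGaccggaatgt
STAT6 uaTSS: ggggaaccctcagctcagAAttctggaaga
STAT6 daTSS: tccctggagctctgacgaCAcagagaagag
STAT5B daTSS: gcaaccaccgcggcccggGAgtgatggcgg
PRLR had CA at both its gene TSS and its uaTSS, and JAK2 had GG at both. The STAT6 daTSS also had CA.

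With only a uaTSS, the class of 35.6% of all gene TSSs, were PRLR, STAT3, JAK1 and JAK2, whose FPKM values lay at percentiles 98.0, 79.2, 54.4 and 5.27 of the 3460 gene TSSs of that class with an FPKM value. STAT6, with both calls as at 17.5% of all gene TSSs, lay at percentile 74.8 of its class, and STAT5B, with only a daTSS as at 11.0%, at percentile 45.7. CISH and STAT5A had neither call, as had 35.9% of all gene TSSs, and lay at percentiles 37.0 and 9.19 of theirs.

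A divergent gene start no more than 1000 nts upstream was found for 1 of the 8 genes, CISH, beside 11.5% of all gene TSSs. The partner was MAPKAPK3, a protein kinase gene, called 464 nts away at 50649573 on the plus strand and measured at 16.3 FPKM. A uaTSS was called at 16.2% of the gene TSSs in such divergent pairs, and neither CISH nor MAPKAPK3 had one.

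The stretch between the CISH and MAPKAPK3 starts held 4 matches to TTCNNNGAA, a palindromic core that reads the same on both strands. Counted from the CISH gene TSS, the first bases of these matches lay at -337, -326, -225 and -208, and 1 more lay at -865, beyond the MAPKAPK3 start. The matches fall into pairs, shown here in the direction of CISH because no other gene of the 8 had a match, with the matches in capitals.
CISH, distal pair: ttTTCCTGGAAagTTCTTGGAAat
CISH, proximal pair: ggTTCTAGGAAgacgctgcTTCCGGGAAgg
The distal pair lies at chr3:50649425-50649448 and the proximal pair at chr3:50649307-50649336 on the minus strand of GRCh37, each given with its flanking bases. Within the distal pair 2 bases separate the matches and within the proximal pair 8 bases. The distal pair and the match at -865 lie in annotated exons of MAPKAPK3, and the proximal pair does not.

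**Figure D2:**
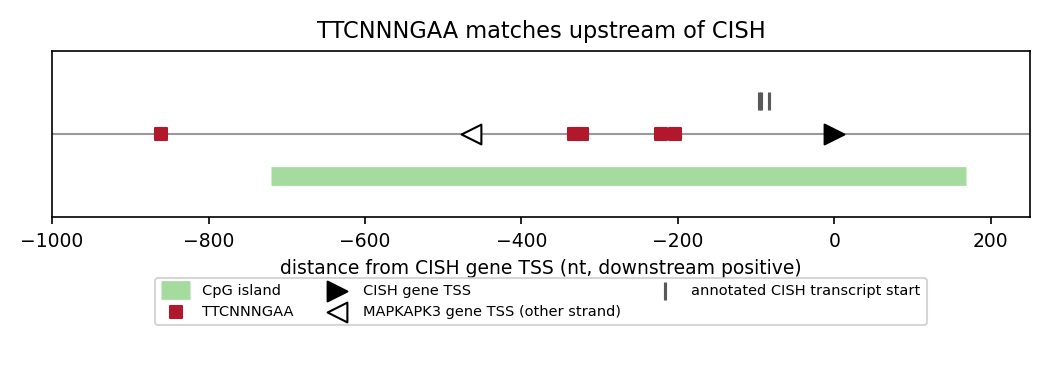
Matches to TTCNNNGAA (red squares) from 1000 nts upstream to 100 nts downstream of the CISH gene TSS, with the MAPKAPK3 gene TSS on the other strand, annotated CISH starts and the CpG island. The x axis is the distance from the CISH gene TSS in nts. Of the 5 matches, 4 lie between the 2 gene TSSs.

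In the window from 250 nts upstream to 50 nts downstream, CISH had 2 matches and no other member had any, which is 1 of 8 beside 5.40% of all gene TSSs. At least 2 matches in that window were present at 0.260% of all gene TSSs. From 1000 nts upstream to 100 nts downstream CISH had 5 matches and the other 7 genes none, beside 23.3% of all gene TSSs with at least 1 match and 0.125% with at least 4. In the RefSeq promoter windows, from 250 nts before to 50 after the annotated start on GRCh38.p14, 16 windows matched 8 of the 9 genes, with SOCS2 not matched. The CISH window held 4 matches, and 7 of all 34796 windows (0.0201%) held at least 4. A match is a string of letters and not a measured binding event.

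CpG islands, taken as CpG-dense segments of over 200 bp, overlapped the gene TSS at 6 of the 8 genes, beside 82.7% of all gene TSSs. The islands ran from 826 nts long at STAT5A to 1159 nts at JAK1. PRLR and STAT6 had none, and for PRLR this depended on the definition. Its longest segment, of 190 nts and 79.5% GC, ran from 222 to 411 nts downstream of the gene TSS. That segment fell short of the minimum length and also did not overlap the gene TSS. Where any 200-nt window over the gene TSS that met the GC and CpG criteria was accepted, a definition added after seeing the data, 81 of the 200 windows over the PRLR gene TSS passed and 0 of those over the STAT6 gene TSS. The count then became 7 of 8, beside 93.1% of all gene TSSs. The uaTSSs of JAK1 and JAK2 lay inside the island, 227 and 185 nts from its upstream edge, and that of STAT3 lay 41 nts outside it. The STAT5B daTSS lay inside the island, 192 nts from the downstream edge.

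GC content in the 100 nts at the gene TSS was 59.0% at PRLR and 63.0% at STAT6, the lowest values of the 8, and 76.0% at JAK1, the highest. The median of the 8 was 66.5%, beside 68.0% for all gene TSSs. Around PRLR the sides differed most, from 43.0% in the upstream 500 nts to 64.2% in the downstream 500 nts. Matches to GGGCGG, the core of the GC box, were searched on both strands over 250 nts upstream and found at 5 of the 8, beside 70.1% of all gene TSSs. JAK1 had 6 matches, and PRLR, STAT5B and STAT6 had none.

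The wider pathway was read from 74 further genes in 7 role groups. An FPKM of at least 1 was found for 49 of them (66.2%), beside 46.9% of all genes, and their median was 7.13 FPKM. Any gene TSS in the widened locus was found for 51 of the 74, beside 49.9% of all genes. A gene TSS assigned by the nearest annotated start was found for 50 of the 74, beside 35.2% of all genes. For genes with an FPKM of at least 1 the count was 45 of 49, beside 70.6%, and for those below it 5 of 25, beside 4.01%.

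**Figure D3:**
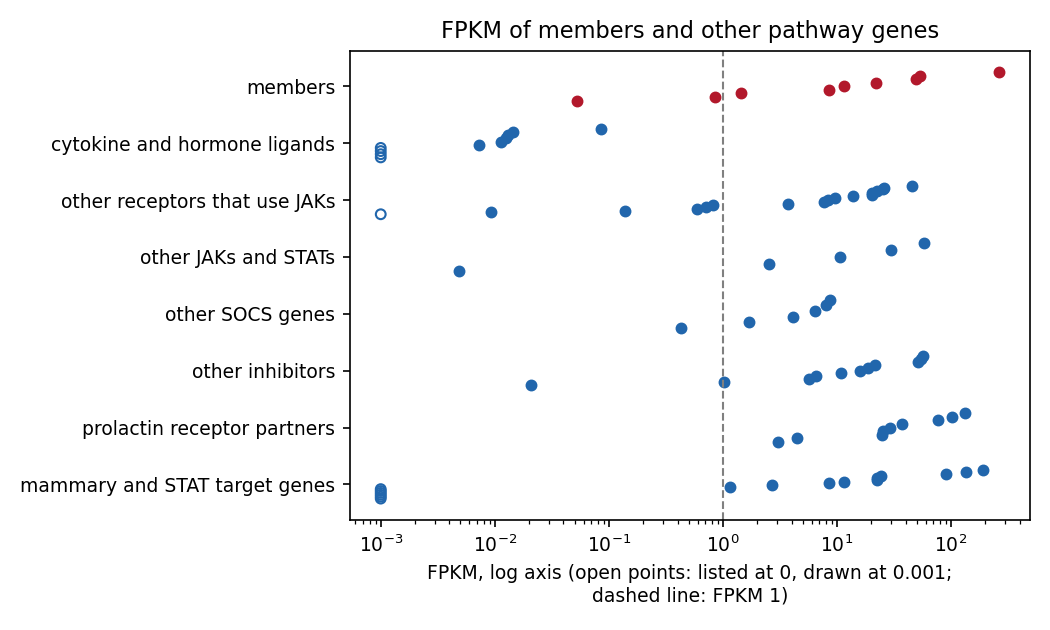
FPKM of the 9 genes (red) and of 74 other pathway genes (blue) by role group, on a log axis, 1 point per gene over the merged replicates, with open points at the left edge for genes listed at 0 and a dashed line at 1 FPKM. All 10 ligand genes lie below 0.1 FPKM, the highest at percentile 42.3 of all genes. All 9 prolactin receptor partners lie above 1 FPKM, where 46.9% of all genes reach at least 1 FPKM.

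None of the 10 ligand genes reached an FPKM of 0.1. The highest of them, EPO at 0.0857 FPKM, stood at percentile 42.3 of all genes, so many other genes were as low. Of the 10, 4 were listed at 0, beside 30.1% of all genes. Among 17 other receptors that use JAKs, 11 (64.7%) reached an FPKM of 1, beside 46.9% of all genes. GHR was the highest at 45.3 FPKM, followed by IL13RA1, a receptor chain for interleukin-13, at 25.6 FPKM and IFNGR2, a chain of the interferon-gamma receptor, at 25.4 FPKM. IL6ST, the shared signal chain of the interleukin-6 family, was measured at 20.5 FPKM, whereas IL6R, its interleukin-6 binding partner, was at 0.597 FPKM.

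Of the other STAT genes, STAT2, which acts in the interferon response, was measured at 29.5 FPKM. STAT4, known from T and natural killer cells, was at 0.00485 FPKM. Of 11 other inhibitors, 10 reached an FPKM of 1, beside 46.9% of all genes. PIAS3, an inhibitor of STAT3, was the highest of them at 57.3 FPKM. The phosphatase genes PTPN11 and PTPN1 were at 54.3 and 51.6 FPKM. All 9 genes listed as receptor partners reached an FPKM of 1, beside the same 46.9%. They ran from 3.06 FPKM for NEK3 to 134 FPKM for PPIA, the prolyl isomerase cyclophilin A.

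Of the 16 mammary and STAT target genes, 10 (62.5%) reached an FPKM of 1, beside 46.9% of all genes. The other 6 were listed at 0, beside 30.1% of all genes. The casein genes CSN1S1, CSN2 and CSN3, the alpha-lactalbumin gene LALBA, the RANK ligand gene TNFSF11 and A2M were the genes at 0. ELF5, a transcription factor of the alveolar lineage, was measured at 135 FPKM, with both a uaTSS and a daTSS. The survival genes BCL2L1 and MCL1 were at 190 and 91.1 FPKM, the cell cycle gene CCND1 at 24.5 FPKM and the kinase gene PIM1 at 2.70 FPKM.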

How the data were processed

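Start-seq of 2 replicates and RNA-seq of 3 replicates were listed, beside 1 MNase-seq and 1 FAIRE-seq sample not analysed here. Per the labels and methods, the authors filtered reads by quality, trimmed adapters with cutadapt 1.2.1 and aligned Start-seq reads to hg19 with Bowtie 0.12.8. Gene TSSs were searched only in windows around RefSeq mRNA starts, and antisense TSSs around the called gene TSSs. TSSs were called from replicate 1 at positions with at least 5 reads. The deposited calls are single positions whose score is 0 throughout, so no read counts were available. RNA-seq reads were aligned with TopHat2 2.0.4 and de-duplicated with Picard 1.118 per the labels, and the authors merged the replicates and computed the deposited FPKM values with Cufflinks 2.2.1. The table gave 0 columns of per-sample values. Depth is therefore unknown, and no comparison was tested.

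Calls were assigned to the nearest annotated transcript start within 1000 nts on the same strand, using GENCODE lifted to GRCh37, which has the same chromosome sequences as hg19. CpG islands were segments grown by a score that rises at each CpG and falls at every other base, kept if longer than 200 bp, with GC no lower than 50% and a ratio of observed to expected CpG above 0.6. The island and motif searches were tested on simulated data. Python 3.11.15, numpy 2.4.6, pandas 2.3.3 and scipy 1.17.1 were used. The genes and lists were chosen with earlier results of these data known. Genes named are the 9 members, the pathway lists, the markers, and neighbours on the other strand starting within 1000 nts upstream; SOCS2-AS1, RAVER2 and NAB2 were added after values were seen. Alternatives covered background genes, pseudocounts, locus margins, joins, island criteria and motif windows. A pathway gene and the sequence at the STAT6 gene TSS are not reported here.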

Additional observations from a re-analysis of the deposited data

How the results depend on the processing

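Of 21 alternatives, 17 gave a count or ratio within 1.5 times the reported one. The remaining 4 were counted as moved. They were the alternatives for the median percentile, which is neither a count nor a ratio, and the ratio with a pseudocount of 1. For the STAT core with 1 more base in its spacer, the count was again 1, but the gene was STAT5B and not CISH. The median FPKM percentile of the 9 genes was 62.6 among genes above 0, 62.0 among genes with an FPKM of at least 1 (7 members) and 82.2 without STAT5A and STAT5B, fewer genes entering each time. With a pseudocount of 1 the STAT5B to STAT5A ratio was 6.81, since the lower value is close to 1. Without a margin around the locus, 6 members had a gene TSS in place of 8, with STAT5B and STAT6 missing. The nearest annotated start for pathway genes (50 in place of 51) and the window definition of a CpG island (7 members in place of 6, with PRLR gained) were added after seeing the data. No paired analysis was possible because replicates were merged in the RNA-seq table and TSS calls come from 1 library, and for the same reason no replicate could be left out. Read depth at a TSS cannot be recovered, so a missing antisense call is not evidence of absent initiation.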

Other observations

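The widened loci also held gene TSSs of 3 neighbours. RAVER2, an RNA-binding protein gene listed with the same locus as JAK1, was called 221437 nts from the JAK1 gene TSS on the other strand, with a uaTSS 229 nts upstream and a daTSS 876 nts downstream, and was measured at 8.46 FPKM. NAB2, a corepressor gene listed with the same locus as STAT6, was called 23715 nts from the STAT6 gene TSS, with a uaTSS 847 nts upstream, and was measured at 26.4 FPKM. Sharing of a locus is common in the table and applies to 8884 of the 26175 genes (33.9%).

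Calls and mRNA levels did not always go together among the 74 pathway genes. A gene TSS was assigned to 5 genes with an FPKM under 1, beside 4.01% of all genes under 1. These were IL6R, LIFR, IFNAR2, SOCS1 and STAT4, and STAT4 was at 0.00485 FPKM. Conversely, EPOR at 7.71 FPKM, JAK3 at 2.55 FPKM, SH2B3 at 1.02 FPKM and SOCS5 at 4.10 FPKM had no gene TSS assigned. The same held for 3611 of the 12271 genes with an FPKM of at least 1. Assignment was by GENCODE gene name, so a gene listed under another symbol counts as unassigned. Any gene TSS in the widened locus, also one of a neighbour, was found for 81.8% of the genes with an FPKM of at least 1. The widened locus of SOCS5 did hold a gene TSS, although none was assigned to SOCS5 by the nearest annotated start. The widened loci of EPOR, JAK3 and SH2B3 held none. STAT5A among the 9 genes had a gene TSS at 0.847 FPKM.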
